A study of Drosophila melanogaster and Drosophila virilis and Drosophila yakuba with 44 samples.

Results

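Female head and ovary of Drosophila virilis, a fly distantly related to D. melanogaster, were compared by 2 assays. 3′-seq captures the junction of the poly(A) tail with oligo-dT primers and counts transcript 3′ ends, whereas total RNA-seq counts fragments from the whole transcript. Genes were kept when head or ovary reached at least 5 CPM, reads per 1000000 after scaling, in both assays. This left 7956 of the 11831 genes in the D. virilis tables. Heads came from mated females aged 2 to 5 days and were cut off at the head, which left out most of the thoracic nerve cord. Ovaries came from flies of the same age, and the labels name no genetic change or treatment and do not state how many flies were pooled. There was 1 library per tissue and assay, so differences between tissues have no replicate check and no test was run. The companion assays bear on how each tissue sample was measured, not on how flies vary.

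The fly head holds the compound eyes and ocelli, the brain, the antennae and other sensory organs, and muscle, fat body, and cuticle. The ovary is made of strings of egg chambers in which germline nurse cells supply the oocyte with RNA and ribosomes, while the surrounding follicle cells secrete yolk proteins and then the eggshell. Much of the RNA laid into the egg is used by the early embryo before its own genome is active.

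The 3′-seq libraries held 10893648 counted reads for head and 14503899 for ovary, and the RNA-seq libraries held 41910143 for head and 47698411 for ovary. A count of 0 allows up to 3 reads, which corresponded to 0.284 CPM in head and 0.212 CPM in ovary for 3′-seq, and to 0.0644 CPM in head and 0.0551 CPM in ovary for RNA-seq. These floors and all intervals cover counting error only, since amplified reads are not independent molecules. The labelled tissues were checked against the markers whose names the tables hold. Summed photoreceptor markers (ninaE and Rh4) reached 26621 CPM in head against 11.0 CPM in ovary by 3′-seq, and summed germline markers (vas, nos, and osk) reached 4.73 CPM in head against 1211 CPM in ovary. Muscle markers (Mhc, wupA, Mlc1, and Prm) were also present in ovary, at 12011 CPM in head against 632 CPM in ovary by 3′-seq and 14094 CPM in head against 558 CPM in ovary by RNA-seq. Markers of glia, fat body, and hemocytes are not named in the tables and were not checked. In whole tissues, fewer cells of a type and less RNA per cell cannot be told apart.

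By the criterion of at least 2-fold in the same direction in both assays, 2416 genes were higher in head (30.4% of the genes kept) and 2607 were lower in head (32.8%). At 16-fold, 1000 genes were higher in head and 235 lower, and at 256-fold the numbers were 92 and 29. Genes higher in head took 58.7% of counted 3′-seq reads in head and 5.15% in ovary, and 53.0% of RNA-seq reads in head and 5.77% in ovary. Genes lower in head took 13.9% of 3′-seq reads in head and 66.8% in ovary, and 12.2% of RNA-seq reads in head and 58.5% in ovary. The genes were chosen from these same libraries, so the direction of the shares was set by the choice. The 95% Wilson intervals of these shares reach at most 0.0292 percentage points to either side. They take the chosen genes as fixed and cover counting error only. Where at least 5 CPM was asked of both tissues, genes with expression in a single tissue were left out and 5247 genes remained. Of these, 798 were higher in head and 1710 lower. The genes higher in head were then 31.8% of those called, beside 48.1% with the main criterion.

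The log2 ratios of head over ovary, calculated on CPM plus 0.5, were similar in the 2 assays (Pearson r = 0.972, Spearman rho = 0.974 across 7956 genes, which share the same 4 libraries and are not independent replicates). Their signs were the same for 95.0% of the genes, and the median absolute difference between assays was 0.25. The median over all genes kept was −0.35 in 3′-seq and −0.30 in RNA-seq. Only 14 genes passed 2-fold in opposite directions. DESeq2 size factors, used in place of trimmed mean of M-values (TMM), raise 3′-seq log2 ratios by up to 0.44. RNA-seq log2 ratios rise by up to 0.14. The rise is smaller where a tissue is near or below the 0.5 CPM added. The direction of differences smaller than these shifts can depend on the scaling, and so can calls that lie as close as these shifts to 2-fold. With DESeq2 factors 2639 genes were higher in head and 2086 lower, so which group is larger also depends on the scaling.

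**Figure D1:**
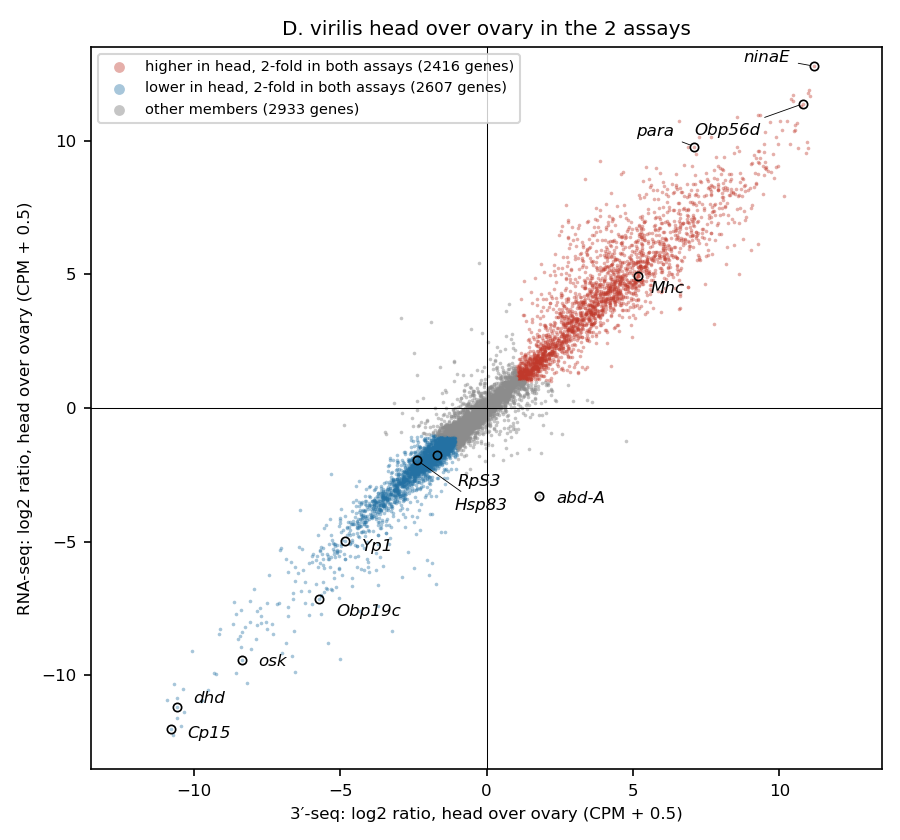
Log2 ratio of head over ovary for the 7956 genes kept, with 3′-seq on the x axis and RNA-seq on the y axis. Genes at least 2-fold higher in head in both assays are red (2416), those lower in head are blue (2607), and the remaining genes are gray. The points follow the diagonal, and abd-A is the labelled exception.

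The Gene column holds a symbol for 254 genes, and the other 11577 carry GJ names that the tables do not pair with a function. Of the 254, 197 were kept, of which 88 were higher in head (44.7%) and 66 lower (33.5%). Genes with a symbol are not a random sample of the genome.

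Vision genes were the most head-biased of the named groups, and all 5 kept were higher in head. ninaE, which encodes the rhodopsin of the outer photoreceptors, was at 26449 CPM in head and 10.9 CPM in ovary by 3′-seq, and at 14127 CPM in head and 1.51 CPM in ovary by RNA-seq. It had the highest head bias of all 7956 genes by the smaller of its 2 log2 ratios (11.18 and 12.78) and took 2.57% of the counted 3′-seq reads in head. Rh3, an ultraviolet opsin of the inner photoreceptors, was at 195 CPM in head by 3′-seq without a read in ovary, which makes it at least 919.5-fold higher in head, and at 128 CPM in head against 0.0184 CPM in ovary by RNA-seq. Rh4, the other ultraviolet opsin, was at 173 CPM in head against 0.141 CPM in ovary by 3′-seq and at 263 CPM in head against 0.0551 CPM in ovary by RNA-seq. Rh2, the opsin of the ocelli, was at 90.2 CPM in head and 0.564 CPM in ovary by 3′-seq and at 91.3 CPM in head and 0.0367 CPM in ovary by RNA-seq. Its highest level was in neither tissue, since testis had 1132 CPM by 3′-seq and 471 CPM by RNA-seq. gl, a zinc finger factor of photoreceptor development, had log2 ratios of 6.93 and 6.05. The histamine receptor gene ort was kept out by 3′-seq, where 6 reads were counted in head and 0 in ovary, whereas RNA-seq gave 16.0 CPM in head and 0.0184 CPM in ovary.

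The pigment and pterin genes were likewise higher in head, with 3 of 3 passing. bw, a transporter of pigment precursors, was at 19.0 CPM in head with no read in ovary by 3′-seq, and at 29.1 CPM in head against 0.275 CPM in ovary by RNA-seq. ry, xanthine dehydrogenase, had log2 ratios of 4.40 and 5.18. Pcd, an enzyme of pterin recycling, differed less, with 1.59 and 1.61.

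Among the 10 neuronal genes kept, 8 were higher in head, nonA was lower, and fax did not reach 2-fold. para, the voltage-gated sodium channel, was at 570 CPM in head and 3.67 CPM in ovary by 3′-seq and at 647 CPM in head and 0.239 CPM in ovary by RNA-seq. elav, an RNA-binding protein found in all neurons, was at 30.8 CPM in head against 3.24 CPM in ovary by 3′-seq and at 42.3 CPM in head against 3.65 CPM in ovary by RNA-seq, so that its log2 ratios (3.06 and 3.37) were well below those of para (7.10 and 9.78). The log2 ratio of Dscam, a neuronal surface receptor, was 1.96 in 3′-seq and 5.08 in RNA-seq. unc-5, a netrin receptor, stood at 4.54 and 5.35. Both clock genes were also present in ovary. per was at 62.3 CPM in head and 23.2 CPM in ovary by 3′-seq and at 128 CPM in head and 47.2 CPM in ovary by RNA-seq, and tim at 42.0 CPM in head against 5.50 CPM in ovary by 3′-seq and at 514 CPM in head against 49.2 CPM in ovary by RNA-seq. nonA, an RNA-binding protein known for courtship song, was at 26.5 CPM in head against 61.3 CPM in ovary by 3′-seq and at 29.0 CPM in head against 63.4 CPM in ovary by RNA-seq, and under DESeq2 scaling it no longer passed 2-fold. The neuropeptide genes Crz and Fmrf were kept out by the minimum, although both leaned to head. Crz was at 4.07 CPM in head by 3′-seq and 2.21 CPM by RNA-seq with no read in ovary. Fmrf was at 10.8 CPM in head against 0.141 CPM in ovary by 3′-seq and at 4.06 CPM in head with no read in ovary by RNA-seq.

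Of 30 patterning and signalling genes kept, 15 were higher in head, 3 were lower, and 12 did not pass in both assays. Over all 197 named genes kept, 44.7% were higher in head and 33.5% lower. Among genes known from eye development, ey, boss, sev, and pros were higher in head, whereas sina, Ras1, dos, ksr, and aop, which also act there, did not pass. ey, the Pax6 factor of the eye, was at 18.1 CPM in head and 0.282 CPM in ovary by 3′-seq and at 79.9 CPM in head and 0.0551 CPM in ovary by RNA-seq. boss, the ligand that photoreceptor R8 presents to its neighbor R7, had log2 ratios of 6.66 and 8.08, and its receptor sev had 2.40 and 2.48. pros, a homeodomain factor of neural lineages, was at 742 CPM in head against 4.37 CPM in ovary by 3′-seq and at 700 CPM in head against 0.128 CPM in ovary by RNA-seq. The 3 lower genes were hb, a gap gene whose RNA is also supplied by the mother (−2.98 and −3.51), slbo, the C/EBP factor of border cells in the ovary (−2.42 and −4.71), and tub, a component of Toll signaling (−1.31 and −1.21, not passing under DESeq2 scaling). Tl, the receptor of that pathway, was at 54.8 CPM in head and 129 CPM in ovary by 3′-seq and at 180 CPM in head and 290 CPM in ovary by RNA-seq, which passed in 3′-seq alone.

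Contractile genes were higher in head but not absent from ovary. Of 8 muscle genes kept, 7 were higher in head. Mhc, the muscle myosin heavy chain, was at 4596 CPM in head and 126 CPM in ovary by 3′-seq and at 11144 CPM in head and 365 CPM in ovary by RNA-seq (36.4-fold, interval 34.7 to 38.2, and 30.5-fold, interval 30.1 to 31.0). Mlc1, Prm, and wupA, which encode a myosin light chain, paramyosin, and troponin I, had log2 ratios of 3.18 to 4.46 in 3′-seq. The troponin C genes differed among themselves. TpnCIIIa was at 460 CPM in head against 0.635 CPM in ovary by 3′-seq and at 270 CPM in head against 0.275 CPM in ovary by RNA-seq, whereas TpnCIa was at 219 CPM in head against 209 CPM in ovary by 3′-seq and at 76.3 CPM in head against 45.8 CPM in ovary by RNA-seq. All 4 actin genes were higher in head, ranging over log2 ratios of 2.91 to 8.35 in 3′-seq and 2.98 to 8.75 in RNA-seq. ActD1 was at 209 CPM in head and 0.141 CPM in ovary by 3′-seq and at 333 CPM in head and 0.275 CPM in ovary by RNA-seq. ActE2 was at 19.8 CPM in head with no read in ovary by 3′-seq and at 214 CPM in head against 0.0918 CPM in ovary by RNA-seq, so that the order of these genes depends on the 0.5 CPM added. ActC2 had the lowest ratio in both assays, at 3042 CPM in head and 404 CPM in ovary by 3′-seq. Reads of closely similar actin copies may have been split by the counting.

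Odorant-binding proteins, small carriers secreted into the lymph of sensory hairs, formed the largest named family. Of 28 genes, 20 were kept, of which 19 were higher in head and 1 was lower. Obp56d was at 6457 CPM in head and 3.10 CPM in ovary by 3′-seq and at 1918 CPM in head and 0.220 CPM in ovary by RNA-seq. Obp44a was at 4536 CPM in head against 6.77 CPM in ovary by 3′-seq and at 2401 CPM in head against 2.61 CPM in ovary by RNA-seq, and also had 1529 CPM in testis by 3′-seq. Obp83a had 294 CPM in head and no read in ovary by 3′-seq, and 196 CPM in head against 0.0734 CPM in ovary by RNA-seq. Obp76a, known in D. melanogaster as lush and for its part in pheromone detection, was at 19.5 CPM in head against 0.141 CPM in ovary by 3′-seq and at 7.28 CPM in head against 0.734 CPM in ovary by RNA-seq. The family spans head levels of 13.1 CPM (Obp84a) to 6457 CPM (Obp56d) in 3′-seq among the genes higher in head. The exception was Obp19c. It was at 1.42 CPM in head and 99.9 CPM in ovary by 3′-seq and at 0.129 CPM in head and 88.5 CPM in ovary by RNA-seq, and had at most 2.73 CPM in testis and in each embryo library. Of the 8 genes not kept, Obp8a, Obp56h, and Obp85a had no read in any of the 10 D. virilis libraries, and Obp93a was at 63.9 CPM in testis by 3′-seq.

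**Figure D2:**
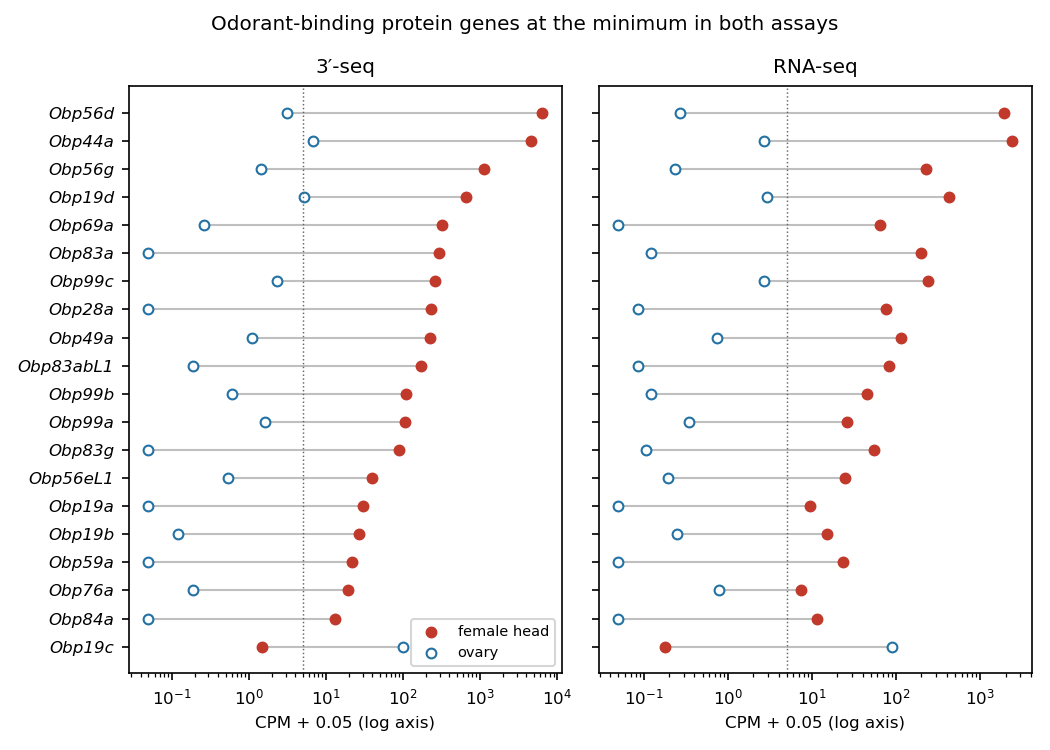
CPM plus 0.05 (log axis) of the 20 odorant-binding protein genes kept, in 3′-seq (left) and RNA-seq (right), with female head as filled red points and ovary as open blue points, 1 library each. The dotted line marks 5 CPM. In 19 genes the head point is to the right of the ovary point, and Obp19c, in the lowest row, is the reverse in both assays.

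The metabolic genes were mixed. Of 15 kept, 8 were higher in head, 3 were lower, and 4 did not pass, beside 44.7% higher and 33.5% lower over all 197 named genes kept. Cyt-b5-r, a desaturase-like enzyme, was at 445 CPM in head and 3.17 CPM in ovary by 3′-seq and at 376 CPM in head and 2.62 CPM in ovary by RNA-seq. Desat2, a fatty acyl desaturase that acts in cuticular hydrocarbon synthesis in D. melanogaster, was at 461 CPM in head against 6.56 CPM in ovary by 3′-seq and at 426 CPM in head against 5.91 CPM in ovary by RNA-seq. Its relative Desat1 was present in both tissues, at 1652 CPM in head against 624 CPM in ovary by 3′-seq and at 887 CPM in head against 343 CPM in ovary by RNA-seq. The genes for the first enzyme of purine synthesis were reciprocal. Prat2 was at 61.8 CPM in head and 1.20 CPM in ovary by 3′-seq and at 68.8 CPM in head and 2.09 CPM in ovary by RNA-seq, whereas Prat was at 3.50 CPM in head against 68.1 CPM in ovary by 3′-seq and at 6.72 CPM in head against 93.3 CPM in ovary by RNA-seq. Sod, superoxide dismutase, was nearly level at 335 CPM in head against 328 CPM in ovary by 3′-seq and at 171 CPM in head against 180 CPM in ovary by RNA-seq. Of 4 thioester and immune genes kept, Tep2, Tep3, and Tep4, which encode complement-like proteins, were higher in head with log2 ratios of 2.64 to 6.51 in 3′-seq, and Tep6 did not pass (−0.92 and −0.99). MtnA, a metallothionein, was at 453 CPM in head against 14.5 CPM in ovary by 3′-seq and at 95.8 CPM in head against 10.8 CPM in ovary by RNA-seq. The heat shock genes kept differed in direction. Hsp68a and Hsp68b were higher in head (1.50 and 3.26 in 3′-seq), and Hsp83, the Hsp90 chaperone, was at 851 CPM in head and 4445 CPM in ovary by 3′-seq and at 1341 CPM in head and 5161 CPM in ovary by RNA-seq.

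On the ovary side, the eggshell genes stood at the end of the distribution. All 6 were lower in head, with log2 ratios of −10.79 to −9.76 in 3′-seq and −12.01 to −10.85 in RNA-seq. Cp15, a chorion protein, was at 2.27 CPM in head and 4900 CPM in ovary by 3′-seq and at 0.687 CPM in head and 4893 CPM in ovary by RNA-seq. Cp36 was at 2.46 CPM in head against 4480 CPM in ovary by 3′-seq and at 1.46 CPM in head against 5995 CPM in ovary by RNA-seq. dec-1, which encodes proteins of the inner eggshell layers, was at 0.568 CPM in head against 925 CPM in ovary by 3′-seq and at 0.944 CPM in head against 2833 CPM in ovary by RNA-seq. The few eggshell reads in head were 0.0464% to 0.0631% of the ovary level in 3′-seq and 0.0107% to 0.0333% in RNA-seq. For the 5 vision genes, the ovary level was 0% to 0.626% of the head level in 3′-seq, where gl and Rh3 had no read in ovary and Rh2 had 8, and 0.0107% to 0.0544% in RNA-seq. Yp1, a yolk protein, was at 319 CPM in head and 9113 CPM in ovary by 3′-seq and at 370 CPM in head and 11555 CPM in ovary by RNA-seq (28.6-fold lower in head, interval 27.6 to 29.6, and 31.2-fold lower, interval 30.8 to 31.7).

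Genes of the germline and of the maternal RNA supply were lower in head in 8 of 10 cases. dhd, a thioredoxin needed when the egg is activated, was at 2.93 CPM in head and 5230 CPM in ovary by 3′-seq and at 0.343 CPM in head and 1975 CPM in ovary by RNA-seq. osk, which organizes the germ plasm at the posterior pole, was at 2.08 CPM in head against 845 CPM in ovary by 3′-seq and at 1.40 CPM in head against 1288 CPM in ovary by RNA-seq. nos, the posterior determinant, was at 0.757 CPM in head against 144 CPM in ovary by 3′-seq and at 0.172 CPM in head against 299 CPM in ovary by RNA-seq. bcd, the anterior determinant, had no read in head in either assay, against 53.9 CPM in ovary by 3′-seq and 86.4 CPM by RNA-seq, and was thus at least 189.8-fold and at least 1341-fold lower in head. vas, a germline RNA helicase, was at 1.89 CPM in head against 222 CPM in ovary by 3′-seq and at 2.43 CPM in head against 259 CPM in ovary by RNA-seq. exu, which acts in bcd RNA localization, was at 5.58 CPM in head against 341 CPM in ovary by 3′-seq and at 5.11 CPM in head against 538 CPM in ovary by RNA-seq, but had 5416 CPM in testis by 3′-seq and 10879 CPM by RNA-seq. plu, an activator of the PAN GU kinase, and mei-218, which acts in meiotic recombination, were also lower in head (−3.87 and −4.05, and −2.92 and −2.80). stau went the other way. This double-stranded RNA-binding protein localizes RNA in oocytes and also in neural cells, and was at 271 CPM in head and 115 CPM in ovary by 3′-seq and at 327 CPM in head and 151 CPM in ovary by RNA-seq. ovo, a germline transcription factor with a form in epidermis, was at 51.1 CPM in head against 82.5 CPM in ovary by 3′-seq and at 42.4 CPM in head against 145 CPM in ovary by RNA-seq, and passed in RNA-seq alone.

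All 6 genes of the cell cycle and DNA replication were lower in head. mus209, the sliding clamp PCNA, was at 9.84 CPM in head and 520 CPM in ovary by 3′-seq and at 5.43 CPM in head and 220 CPM in ovary by RNA-seq. thr and Sse together form separase. thr was at 1.04 CPM in head against 79.7 CPM in ovary by 3′-seq and at 1.50 CPM in head against 111 CPM in ovary by RNA-seq. Sse was at 0.946 CPM in head against 23.8 CPM in ovary by 3′-seq and at 1.31 CPM in head against 38.3 CPM in ovary by RNA-seq. dUTPase, which keeps uracil out of DNA, had log2 ratios of −4.28 and −4.42, and dap, an inhibitor of cyclin-dependent kinases, had −2.30 and −2.78. Dref, a transcription factor of replication genes, was at 17.0 CPM in head and 69.8 CPM in ovary by 3′-seq and at 38.7 CPM in head and 130.2 CPM in ovary by RNA-seq. All 6 ribosomal protein genes were lower in head as well, within a narrow band of −1.77 to −1.55 in 3′-seq and −1.91 to −1.66 in RNA-seq. RpS3 was at 1739 CPM in head against 5613 CPM in ovary by 3′-seq and at 532 CPM in head against 1798 CPM in ovary by RNA-seq. This band lies below the median of all genes kept (−0.35 and −0.30), and all 6 still passed under each scaling tried.

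Of 11 genes of the heterochromatin protein 1 group and its partners, 8 were kept, of which 5 were lower in head and none was higher. Over all named genes kept, 33.5% were lower in head. HP1B was kept out by 3′-seq, whereas RNA-seq gave 11.1 CPM in head and 50.3 CPM in ovary. HP1A, the founding member of the family, was at 43.1 CPM in head and 310 CPM in ovary by 3′-seq and at 19.3 CPM in head and 124 CPM in ovary by RNA-seq. hiphop, a telomere cap protein, was at 3.69 CPM in head against 60.0 CPM in ovary by 3′-seq and at 3.99 CPM in head against 47.9 CPM in ovary by RNA-seq. HP1J was at 0.284 CPM in head against 14.0 CPM in ovary by 3′-seq and at 0.343 CPM in head against 13.1 CPM in ovary by RNA-seq. HP1C, HP2, and SuUR did not pass, and HP1Mcsd was kept out with 0 reads in ovary, at most 0.0946 CPM in head, and 47.3 CPM in testis by 3′-seq. Among 5 genes of transcription and translation kept, 4 were lower in head. RpII140, a subunit of RNA polymerase II, was at 18.6 CPM in head against 137 CPM in ovary by 3′-seq and at 77.0 CPM in head against 407 CPM in ovary by RNA-seq. Nelf-E was kept out by 3′-seq, whereas RNA-seq gave 9.47 CPM in head and 33.5 CPM in ovary. TfIIB, at −1.23 and −1.14, no longer passed under DESeq2 scaling. T-cp1, a chaperonin subunit, was at 25.2 CPM in head against 337 CPM in ovary by 3′-seq and at 55.1 CPM in head against 621 CPM in ovary by RNA-seq.

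Of 7 sex determination and dosage compensation genes kept, 2 were higher in head, 4 were lower, and Sxl did not pass. The shares over all 197 named genes kept were 44.7% higher and 33.5% lower. dsx and fru, the terminal transcription factors, were higher in head, with fru at 88.4 CPM in head and 9.10 CPM in ovary by 3′-seq and at 150 CPM in head and 14.6 CPM in ovary by RNA-seq. tra2, their splicing regulator, was at 11.6 CPM in head against 47.2 CPM in ovary by 3′-seq and at 9.66 CPM in head against 45.4 CPM in ovary by RNA-seq. msl-1, msl-2, and msl-3, subunits of the dosage compensation complex, were lower in head with log2 ratios of −2.19 to −1.73 in 3′-seq and −1.72 to −1.45 in RNA-seq. Sxl, the switch gene, was at 388 CPM in head against 195 CPM in ovary by 3′-seq and at 198 CPM in head against 92.2 CPM in ovary by RNA-seq, just short of 2-fold in 3′-seq by the log2 ratio (0.99), and passed under DESeq2 scaling.

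**Figure D3:**
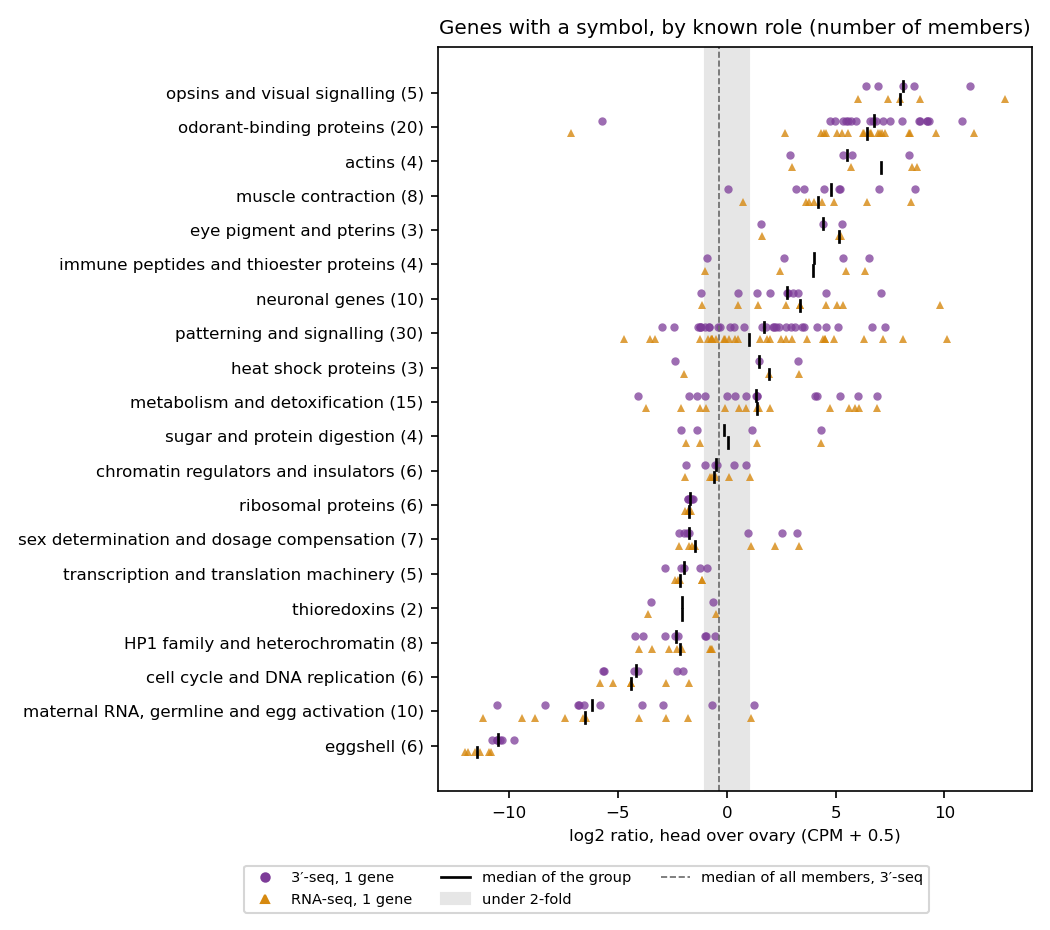
Log2 ratio of head over ovary for the named genes kept, grouped by known role with the number of genes in parentheses, for groups of at least 2 genes. Purple circles are 3′-seq, orange triangles are RNA-seq, black ticks are group medians, the gray band is under 2-fold, and the dashed line is the 3′-seq median of all genes kept (−0.35). Vision genes lie highest, with a 3′-seq median of 8.08, and eggshell genes lowest, with −10.49.

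The 2 groups of genes were then followed in the other D. virilis libraries, which are testis and embryos of 0–12, 12–24, 24–36, and 36–48 h. Of the genes lower in head, 94.7% reached 5 CPM in 0–12 h embryos, compared with 35.0% of the genes higher in head and 76.0% of all genes kept. Their median in that library was 48.5 CPM for genes lower in head and 1.43 CPM for genes higher in head. In 24–36 h embryos the shares were closer, at 78.6% of the genes higher in head and 85.8% of those lower in head, beside 86.3% of all genes kept. Median levels there were 21.0 CPM for genes higher in head, 23.9 CPM for genes lower in head, and 26.9 CPM for all genes kept. Over the 7 3′-seq libraries, 68.1% of genes higher in head had their highest level in head (25.7% of all genes kept), 10.1% in 12–24 h embryos (7.67%), and 9.48% in testis (18.0%). Genes lower in head had their highest level in ovary in 38.6% of cases (18.1% of all genes kept), in 0–12 h embryos in 35.6% (20.0%), and in testis in 17.6% (18.0%). Since the genes were chosen for head against ovary, the shares in these tissues are partly set by the choice. These libraries differed in depth from 2479191 to 14503899 counted reads, and each is a single library.

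Named genes showed several courses within these totals. dhd was at 5230 CPM in ovary, at 3632 CPM in 0–12 h embryos, and at 360 CPM in 12–24 h embryos, and osk was at 436 CPM in 0–12 h embryos and 77.4 CPM in 12–24 h embryos. The eggshell genes and Yp1 had about 1.00 CPM or less in every embryo library. Of the 8 muscle genes kept, 6 reached 5 CPM in each of the 3 later embryo libraries, with Mhc at 10.8, 820, 3231, and 2360 CPM from the first to the last window. TpnCIIIa and TpnCIIIb, 2 of the troponin C genes, did not, and TpnCIIIb had no read in any embryo library. ninaE, Rh2, Rh3, and Rh4 likewise stayed at about 1.00 CPM or less in all embryo libraries. TrxT, a thioredoxin known from testis in D. melanogaster, was lower in head than in ovary (2.08 CPM in head against 28.6 CPM in ovary by 3′-seq), but testis held 674 CPM.

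**Figure D4:**
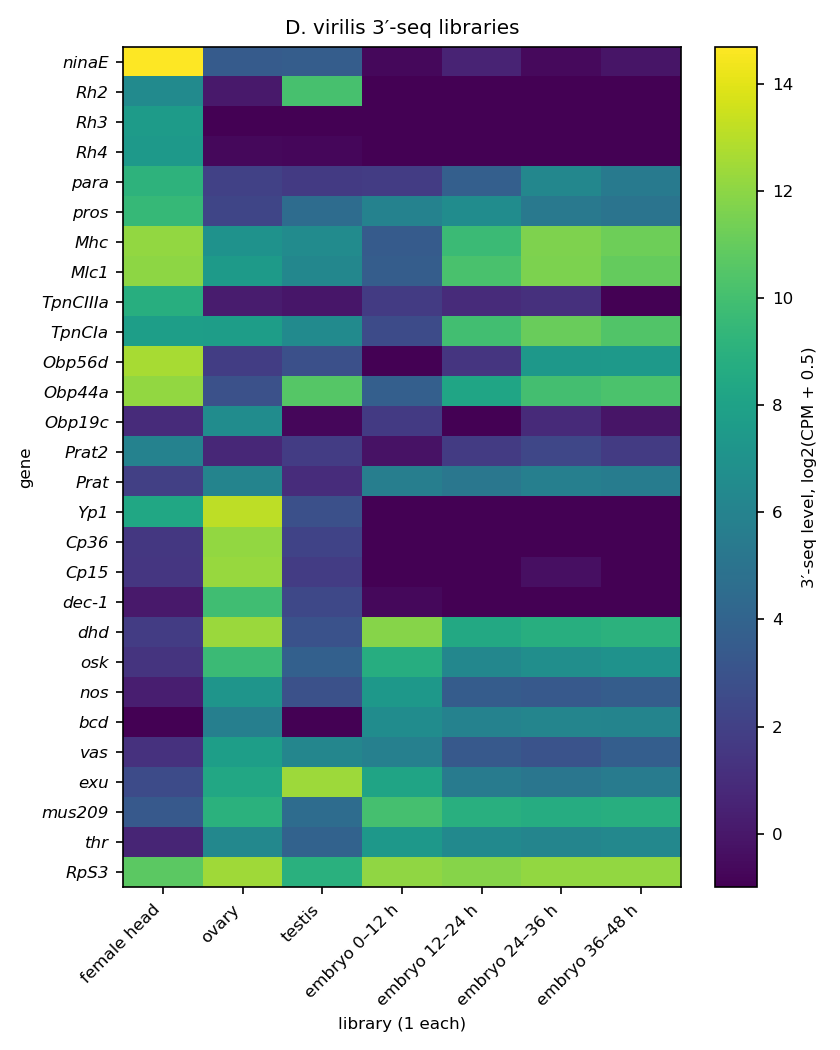
3′-seq level, as log2 of CPM plus 0.5 on the color scale, of 28 named genes (rows) in the 7 D. virilis 3′-seq libraries (columns, 1 library each). Rows run from vision, neuronal, muscle, and odorant-binding genes to yolk, eggshell, maternal, and cell cycle genes. Rh2 and exu are highest in testis, and dhd is high in both ovary (5230 CPM) and 0–12 h embryos (3632 CPM).

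The assays did not see every gene equally. At the minimum of 5 CPM, 213 genes passed in 3′-seq alone, 695 in RNA-seq alone, and 2967 in neither. Among the named genes, 11 passed in 3′-seq alone and 9 in RNA-seq alone. Adh2, an alcohol dehydrogenase, had 24731 RNA-seq reads in head (531 CPM, against 7.82 CPM in ovary) but 1 3′-seq read in head and 0 in ovary. Its neighbor in name, Adh1, was kept and higher in head, at 13.4 CPM in head against 0.353 CPM in ovary by 3′-seq and at 826 CPM in head against 13.6 CPM in ovary by RNA-seq. Ddc, dopa decarboxylase, was at 127 CPM in head and 0.367 CPM in ovary by RNA-seq with 9 reads in head and 1 in ovary by 3′-seq. Rpd3, a histone deacetylase, was at 27.8 CPM in head and 153 CPM in ovary by RNA-seq with 1 read in head and 14 in ovary by 3′-seq. Numbered copies such as Adh1 and Adh2 or the Hsp70 genes may share reads, and whether the gene models or the counting set these gaps was not tested. The abdominal Hox gene abd-A was the sole named gene to pass 2-fold in opposite directions, at 5.68 CPM in head and 1.27 CPM in ovary by 3′-seq and at 0.300 CPM in head and 7.40 CPM in ovary by RNA-seq. It also lay just inside the minimum, as did slbo (5.71 CPM), while Antp (4.72 CPM) and Obp56a (4.42 CPM) lay just outside.

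Without symbols, GJ16116 was at 6486 CPM in head and 2.61 CPM in ovary by 3′-seq and at 3989 CPM in head and 0.716 CPM in ovary by RNA-seq, and GJ12778 at 35328 CPM in head against 16.8 CPM in ovary by 3′-seq and at 4433 CPM in head against 0.661 CPM in ovary by RNA-seq. By the smaller of the 2 log2 ratios these ranked 2 and 3 in head bias, behind ninaE. GJ12592 was at 5.39 CPM in head against 11482 CPM in ovary by 3′-seq and at 0.322 CPM in head against 1590 CPM in ovary by RNA-seq, and was the most ovary-biased gene by the smaller of its 2 log2 ratios. GJ18632 was at 2.27 CPM in head against 4653 CPM in ovary by 3′-seq and at 1.27 CPM in head against 8436 CPM in ovary by RNA-seq. At the other extreme, 31 genes kept had no read in ovary in either assay, and 5 had none in head.

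Finally, genes with the same symbol were set beside D. melanogaster and D. yakuba, whose head and ovary libraries were treated in the same way. The tables share 193 symbols with D. melanogaster and 93 with D. yakuba. Over 147 genes kept in both D. virilis and D. melanogaster, the mean log2 ratios of the assays had a Pearson r of 0.958 and a Spearman rho of 0.936, and 93.9% had the same sign. Over 68 genes kept in D. virilis and D. yakuba, r was 0.939 and rho 0.904. These are correlations across genes, each from single libraries. Of 67 genes higher in head in D. virilis with a D. melanogaster namesake, 59 were also higher in head there and 0 were lower. Another 4 passed neither way and 4 were not kept in D. melanogaster. Over all 8182 genes kept in D. melanogaster, 31.1% were higher in head. Of 57 lower in head, 43 were also lower in head in D. melanogaster, 3 were higher, 6 passed neither way, and 5 were not kept. Over the same 8182 genes, 38.5% were lower in head. In D. yakuba, 34 of 38 genes higher in head in D. virilis were also higher in head, 1 was lower, and 3 were not kept. Over all 8221 genes kept in D. yakuba, 29.1% were higher in head. Of 22 lower in head, 12 were also lower in D. yakuba, 1 was higher, 6 passed neither way, and 3 were not kept. Over the same 8221 genes, 37.9% were lower in head.

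The exception in the odorant-binding family was common to the 3 species. The log2 ratio of Obp19c was −5.71 in D. virilis, −5.32 in D. melanogaster, and −5.69 in D. yakuba by 3′-seq. Prat was lower in head in D. virilis and D. melanogaster alike, at −4.10 and −3.88. Desat2 was a contrast. It was at 461 CPM in head of D. virilis by 3′-seq, compared with 0.204 CPM in head of D. melanogaster and 3.95 CPM in head of D. yakuba. The paper names Canton S as the D. melanogaster strain, so differences between strains and between species cannot be told apart here. Yp1 had the widest reversal. In D. melanogaster it was at 10170 CPM in head and 1218 CPM in ovary by 3′-seq and at 22022 CPM in head and 2979 CPM in ovary by RNA-seq, so that its log2 ratio was −4.83 in D. virilis and 3.06 in D. melanogaster. Symbols alone tie these genes together, and no other D. virilis gene in the table carries a yolk protein symbol.

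**Figure D5:**
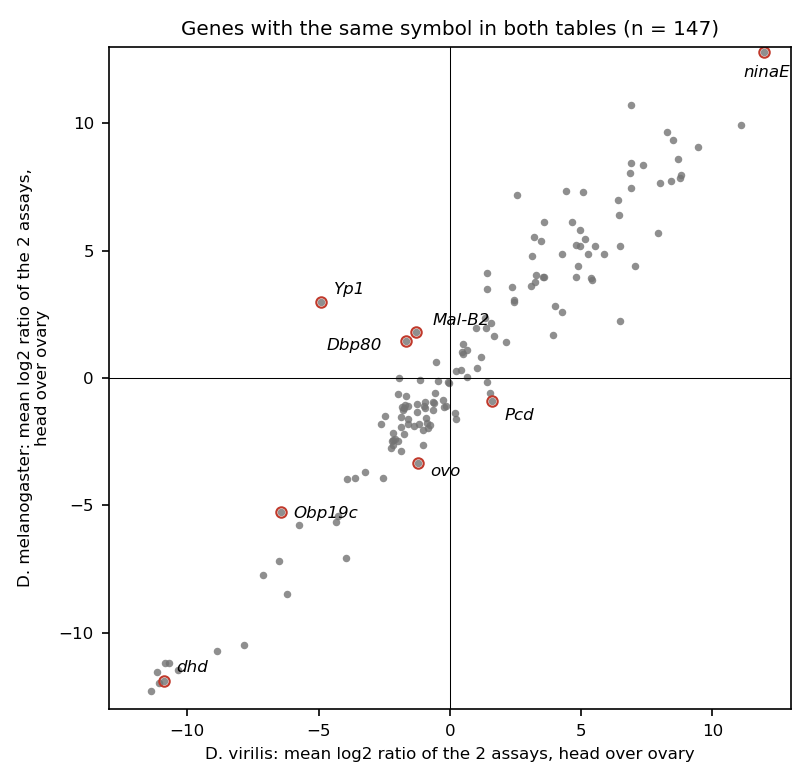
Mean log2 ratio of the 2 assays, head over ovary, in D. virilis (x axis) and D. melanogaster (y axis) for 147 genes that share a symbol and were kept in both species. Most points lie in the lower left and upper right, and Yp1 stands apart at −4.90 in D. virilis and 2.97 in D. melanogaster.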

How the data were processed

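3′-seq and total RNA-seq counts of D. virilis female head and ovary were analyzed, with testis and embryo libraries and the D. melanogaster and D. yakuba head and ovary libraries for side-by-side values. The authors deposited raw read counts per gene. They prepared 3′-seq from 2 μg total RNA by chemical fragmentation and oligo-dT priming, and RNA-seq with a stranded total RNA kit, mapped the RNA-seq reads to dvir3 with HISAT2 at default settings, and counted on gene models with extended 3′ ends. The submitters' processing notes also name Trimmomatic 0.36. The counting options are not given in the sources used here. A read from a 3′ end outside a gene model is lost in 3′-seq but less so in RNA-seq.

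CPM were calculated within each table with TMM factors (edgeR 4.0.16, R 4.3.3), and the log2 ratio of head over ovary with a pseudocount of 0.5 CPM. Genes needed 5 CPM in head or ovary in both assays, and were called at 2-fold in the same direction in both. With 1 library per tissue and assay, DESeq2 1.42.0 served for size factors alone and no test was run. Fold intervals are exact binomial at 95%. The steps were tested on simulated data, in which changes larger than 2-fold were planted in well-expressed genes. The simulated means were the same in both assays. Calls near 2-fold or near 5 CPM, and disagreement between assays, were therefore not covered. Other steps used Python 3.11.15.

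The members and lists were chosen with earlier results of these data known. Role and marker lists in D. melanogaster symbols matched 54 of 596 symbols, so the 254 symbols were grouped by known role. The text names members of these lists and groups, the genes with the largest agreeing or opposite ratios, and those nearest the minimum. The 22 other columns of per-sample values were not used. Sequences and ortholog pairs of GJ names were not used here.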

Additional observations from a re-analysis of the deposited data

Results flagged for a closer look

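In 4 genes the head over ovary difference passed 2-fold in both assays in opposite directions in D. virilis and in another species. The differences between species were not tested, since each value comes from single libraries. Yp1 had a 3′-seq log2 ratio of −4.83 in D. virilis and 3.06 in D. melanogaster. Mal-B2, a maltase, had −1.36 in D. virilis, against 1.86 in D. melanogaster and 1.85 in D. yakuba, and its D. virilis value did not pass under DESeq2 scaling. Dbp80, a DEAD-box RNA helicase, had −1.50 in D. virilis and 1.36 in D. melanogaster. Mal-A1, another maltase, had 4.34 in D. virilis and −1.82 in D. yakuba, where it was at 2.20 CPM in head and 9.02 CPM in ovary by 3′-seq. In D. melanogaster Mal-A1 was not kept but leaned to head, with a 3′-seq log2 ratio of 2.66.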

How the results depend on the processing

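The numbers of genes higher and lower in head, 2416 and 2607, stayed within 1.5 times under library totals, other TMM or DESeq2 factors (2639 and 2086), other pseudocounts, minimums of 1 or 10 CPM or none, each assay alone, and thinning to the lowest total. They moved to 798 and 1710 with 5 CPM in both tissues, which left 5247 genes. At 4-fold, over the same 7956 genes, 1827 were higher in head and 1125 lower. Which group is larger therefore also depends on the fold asked. Pearson r was 0.964 with a minimum of 1 CPM, 0.976 with 10 CPM, 0.945 with none, 0.959 with 5 CPM in both tissues, and 0.970 with pseudocounts of either 0.1 or 1 CPM. Under DESeq2 factors 8 of the 154 calls on named genes were lost (Acph, Cdc37, l(2)tid, Mal-B2, nonA, Pros28.1, TfIIB, and tub) and 3 were gained (ATPsyn-beta, Sxl, and trx). The size of a log2 ratio depends on the pseudocount where a tissue is below the 0.5 CPM added, as for Rh3 and Rh4 in ovary. No paired analysis was possible because each tissue has 1 library per assay. Depth limits genes near the floors, and the tissue difference has no replicate.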
